A study of Mus musculus with 6 samples.

Results

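The Schlafen gene cluster is a run of related mouse genes on chromosome 11. The family was chosen by its KO and CTRL counts in these same libraries. Its members were then taken by gene symbol (Slfn1, Slfn2, Slfn3, Slfn4, Slfn5, Slfn8 and Slfn9), and all 7 were found among the 54838 gene identifiers of each count table. They were measured by RNA sequencing of glomeruli, the capillary tufts where the kidney filters blood, isolated from mice 3 weeks old. The 3 libraries labelled KO (146, 147 and 148) carry the genotype bPIX -/-, described in the series as a loss of bPIX restricted to podocytes, which wrap those capillaries with interlocking foot processes. The 3 libraries labelled CTRL (157, 162 and 163) are labelled wild type. bPIX is the product of Arhgef7, an activator of the small GTPases Cdc42 and Rac1. The sources used here name neither the Cre driver nor the strain. The deposited file names carry the opposite group for all 6 libraries. Groups follow the sample labels, and if the file names were right every KO minus CTRL difference below would change sign and keep its size.

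Schlafen proteins take their name from the German word for sleeping, after the growth arrest that Slfn1 causes in mouse thymocytes. All share an N-terminal Schlafen core, and the long members add a helicase-like C-terminal region. Several members are induced by type I interferons, whose signalling acts on target genes through a DNA element called the ISRE. They are best known from T cells and myeloid cells, where Slfn2 keeps resting T cells quiescent.

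The members lie next to each other on GRCm38 chromosome 11 from 82951349 to 83215154, a span of 263806 bases, and every one of the 7 protein-coding genes annotated by GENCODE M21 within that span is a member. Their coding lengths fall into 3 classes. Slfn1 and Slfn2 are short (1011 and 1134 bases), Slfn4 and Slfn3 are intermediate (1806 and 1920 bases), and Slfn5, Slfn8 and Slfn9 are long (2652, 2730 and 2730 bases). The closest pairs are Slfn3 with Slfn4, identical at 93.7% of aligned coding bases, and Slfn8 with Slfn9, identical at 93.0%. The other pairs of members were identical at 73.5% to 81.0% of aligned bases. Aligned bases leave out gaps, which raises these values for distant pairs. As a share of the shorter coding sequence, identical bases made up 92.0% in Slfn3 with Slfn4 and 92.7% in Slfn8 with Slfn9. In the other pairs that share ran from 54.9% (Slfn3 with Slfn9) to 74.7% (Slfn2 with Slfn3).

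Close relatives can exchange reads or lose them. Of all 50-base windows in the longest coding transcript, 11.4% in Slfn9 and 15.4% in Slfn8 also occur unchanged in a transcript of another gene, most often the pseudogene Slfn10-ps. The share was 21.8% in Slfn3 and 11.1% in Slfn4, against 0.606% in Slfn1, 4.27% in Slfn2 and 3.59% in Slfn5. Slfn3 and Slfn4 had similar numbers of shared windows, 417 and 434, in transcripts of 1966 and 3958 bases. With 100-base windows no member exceeded 4.93%. Reads that align to several places are missing from the gene counts, so Slfn3, Slfn4, Slfn8 and Slfn9 may be undercounted. The amount is unknown because the read length is not given, and Slfn4 shared only 0.285% of its 100-base windows. Values of single genes in these pairs are uncertain to that extent.

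A window of 300 bases around the annotated start (250 before, 50 after) was available from RefSeq for all 7 members. An ISRE-type match, GAAA followed by any 2 bases and a second GAAA on either strand, was found for 3 of 7 members, which are the long genes Slfn5, Slfn8 and Slfn9, and in 3.44% of all 32851 RefSeq windows of the same length. The interferon-gamma element TTCNNNGAA was found in 0 of 7 members and in 8.3% of all windows. A match is a description of letters and not a shown binding site. The 200 bases directly before the start are printed 5′ to 3′ on the gene's strand (RefSeq, GRCm38.p6), because they show that Slfn9 and Slfn8 carry the same 10 letters at almost the same place. Capitals mark the ISRE-type match.
Slfn9 (chr11:82991831-82992030, minus strand): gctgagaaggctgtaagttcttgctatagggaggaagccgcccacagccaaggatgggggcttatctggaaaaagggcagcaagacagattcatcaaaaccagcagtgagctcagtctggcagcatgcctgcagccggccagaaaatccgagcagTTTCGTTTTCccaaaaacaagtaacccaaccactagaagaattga
Slfn8 (chr11:83020811-83021010, minus strand): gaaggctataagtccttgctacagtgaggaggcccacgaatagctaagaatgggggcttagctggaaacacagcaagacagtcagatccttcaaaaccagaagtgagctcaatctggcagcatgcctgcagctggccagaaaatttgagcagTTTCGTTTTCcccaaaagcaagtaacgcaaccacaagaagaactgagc
Slfn5 (chr11:82951902-82952101, plus strand): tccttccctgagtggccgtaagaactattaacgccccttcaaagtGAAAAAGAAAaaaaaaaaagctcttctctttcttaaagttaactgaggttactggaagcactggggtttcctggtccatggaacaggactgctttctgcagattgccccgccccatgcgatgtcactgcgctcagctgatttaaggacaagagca
The match begins 45 bases before the start in Slfn9 and 48 bases before it in Slfn8, as the same letters TTTCGTTTTC, which hold both GAAA blocks on the other strand. The 2 windows are identical at 86.8% of 288 aligned bases. The windows of the other pairs of members were identical at 74.6% to 88.3%, but of only 137 to 228 aligned bases. A second annotated start of Slfn8 lies further downstream and puts the same letters 136 bases before it. In Slfn5 the match begins 155 bases before the start and runs into a stretch of A, so it differs from the shared Slfn8 and Slfn9 element. GENCODE M21 starts Slfn5 further upstream, at 82951349, so the bases printed for Slfn5 lie inside its GENCODE span.

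Gene counts ranged from 39841396 to 51917945 per library. The libraries differed in their summed podocyte markers, at 3000 to 9700 CPM (counts relative to the TMM-adjusted library total) in KO libraries and 1520 to 1770 CPM in CTRL libraries, highest in KO 146. Proximal tubule markers summed to 13000 to 22400 CPM in KO libraries and 28300 to 29900 CPM in CTRL libraries, so tubule RNA was abundant in all. Fewer cells of a type and less RNA per cell cannot be told apart in bulk samples. Arhgef7, the targeted gene, stood at 133, 89.5 and 85.8 CPM in KO 146, 147 and 148, against 91.9, 94.0 and 88.4 CPM in CTRL 157, 162 and 163, and so did not mark the groups. The libraries also hold cells other than podocytes, in which no deletion was made.

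Per kilobase of merged exons, Slfn5 was the most abundant member, at 20.2 ± 13.0 CPM per kb in KO libraries and 5.64 ± 0.563 CPM per kb in CTRL libraries (SD, n = 3 each). Slfn2 followed at 7.97 ± 3.67 in KO and 3.32 ± 0.525 in CTRL, on the same scale. The level per kilobase of Slfn9 was 1.29 ± 0.355 in KO and 0.328 ± 0.0482 in CTRL. Between KO libraries the ranges of Slfn5 and Slfn2, of Slfn9 and Slfn3, of Slfn3 and Slfn1, and of Slfn8 and Slfn4 overlapped. Within each KO library, however, Slfn5 was above Slfn2, Slfn9 above Slfn3 and Slfn3 above Slfn1. Slfn9 and Slfn3 were close in KO 146, at 1.65 and 1.54 CPM per kb. Slfn4 was above Slfn8 in KO 146 and below it in KO 147 and 148. In CTRL libraries Slfn5, Slfn2 and the rest were apart, Slfn9, Slfn1, Slfn8 and Slfn3 overlapped their neighbours in the order, and Slfn4 was lowest. Within each CTRL library Slfn9 was above Slfn1, Slfn8 and Slfn3. Slfn5 held 81.6% ± 3.32 of the counts of all members in KO libraries and 78.0% ± 1.34 in CTRL libraries (SD, n = 3 each), so the family total is mainly Slfn5.

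Most of the cluster was higher in KO glomeruli than in CTRL glomeruli, and Slfn9 passed the test over all genes. The log2 fold changes were 1.98 for Slfn9, 1.92 for Slfn3, 1.84 for Slfn5, 1.27 for Slfn2, 1.07 for Slfn4 and 0.64 for Slfn1, while Slfn8 stood at 0.03. The groups did not overlap for 5 of 7 members, and 21.9% of all 17086 tested genes had KO libraries wholly above CTRL libraries. edgeR's quasi-likelihood test with Benjamini-Hochberg adjustment called 1 of 7 members higher, against 0.591% of tested genes called higher, and 5 of 7 reached an unadjusted p below 0.05, against 17.5%. All 7 members passed the filter on low counts. The family was chosen with this contrast in view, so these counts and the values below describe the libraries and are no independent test.

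**Figure D1:**
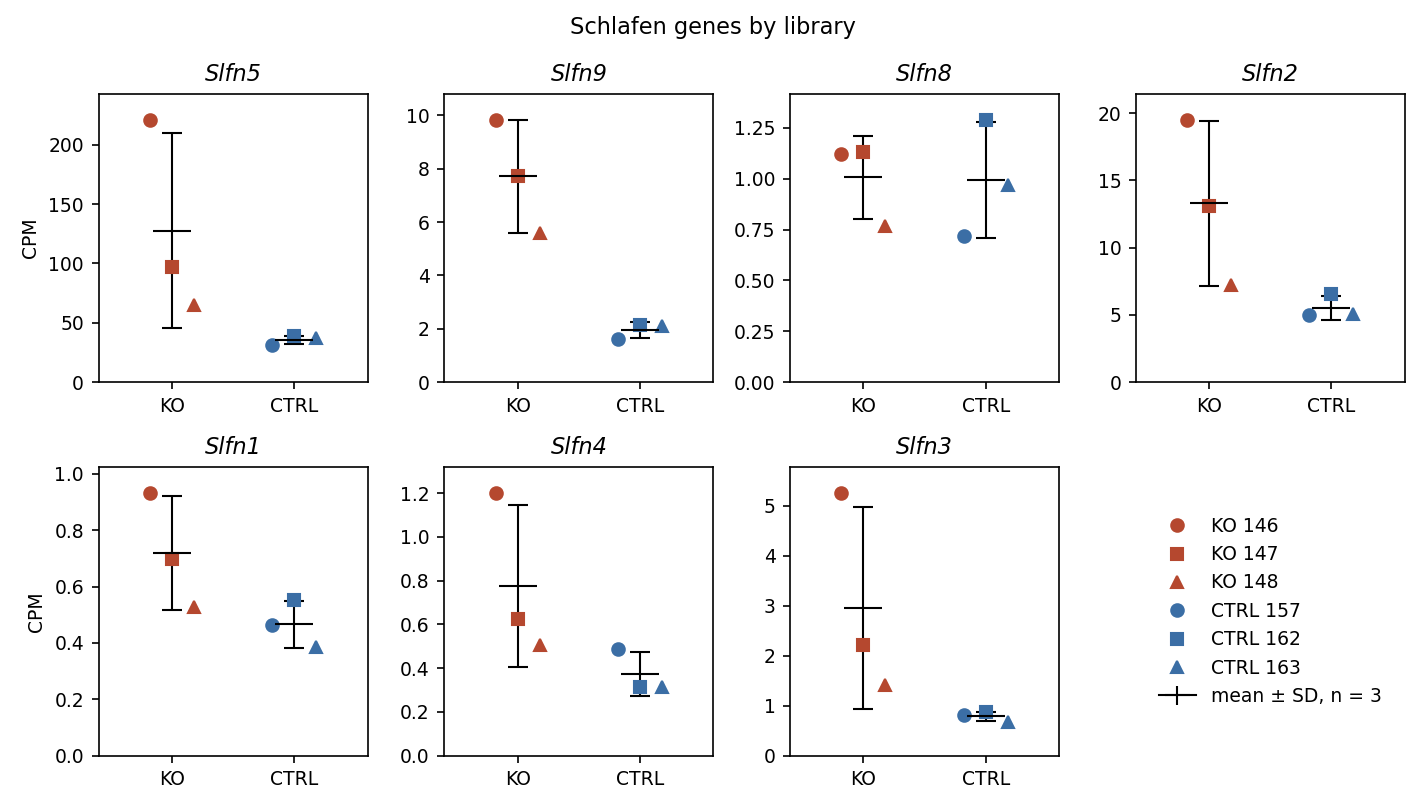
Level of each Schlafen gene in CPM (vertical axes from 0) in the KO and CTRL libraries, with points for single libraries and bars for mean ± SD (n = 3 each). KO 146 is highest among the KO libraries in 6 of the panels, and the Slfn8 panel shows overlapping groups.

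Slfn5, a long member and an interferon-regulated gene, had 13030, 4019 and 2960 counts in KO 146, 147 and 148, against 1365, 1469 and 1631 counts in CTRL 157, 162 and 163. Its level was 221, 96.9 and 65.1 CPM in the KO libraries, against 31.7, 38.5 and 36.8 CPM in the CTRL libraries. All 3 KO libraries lay above all 3 CTRL libraries, and the KO libraries differed 3.39-fold among themselves, against 1.22-fold in CTRL. The fold change of Slfn5 was 3.58 (log2 fold change 1.84, SE 0.43, edgeR adjusted p = 0.0755). An antisense gene, Slfn5os, overlaps Slfn5 on the opposite strand and held 1 to 19 counts per library, and without a stated strand setting reads of the pair cannot be told apart.

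Slfn9, also long, had 581, 320 and 255 counts in KO 146, 147 and 148, against 70, 81 and 94 counts in CTRL 157, 162 and 163. These are 9.84, 7.72 and 5.61 CPM in the KO libraries, against 1.63, 2.13 and 2.12 CPM in the CTRL libraries. The lowest KO library was above the highest CTRL library, and the KO libraries spanned 1.75-fold, less than the 3.39-fold of Slfn5. Slfn9 rose 3.95-fold (log2 fold change 1.98, SE 0.25, edgeR adjusted p = 0.0332). The call depended on single libraries: without KO 147 the adjusted p was 0.139, and without CTRL 157, 162 or 163 it was 0.196, 0.177 and 0.162, with log2 fold changes of 1.98, 1.86, 2.04 and 2.04. Without KO 146, the library with the highest glomerular marker sums, the log2 fold change of Slfn9 was 1.76 (adjusted p = 0.00242), and without KO 148 it was 2.16 (adjusted p = 0.0147).

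Slfn8, the closest relative of Slfn9 and its neighbour on the same strand, did not show this difference. Slfn8 had 66, 47 and 35 counts in KO 146, 147 and 148, against 31, 49 and 43 counts in CTRL 157, 162 and 163. The groups overlapped at 1.01 ± 0.206 CPM in KO and 0.992 ± 0.284 CPM in CTRL (SD, n = 3 each). Its log2 fold change was 0.03 (SE 0.29, edgeR adjusted p = 0.958).

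The Slfn9 to Slfn8 count ratio was 8.80, 6.81 and 7.29 in KO 146, 147 and 148, against 2.26, 1.65 and 2.19 in CTRL 157, 162 and 163. Every KO ratio was thus above every CTRL ratio, and the KO ratios were closer to each other than the levels of Slfn9 were. The Slfn10-ps pseudogene, which shares windows with both, had 27, 11 and 15 counts in KO 146, 147 and 148, against 5, 7 and 7 counts in CTRL 157, 162 and 163, with a log2 fold change of 1.21 (SE 0.35, edgeR adjusted p = 0.0863). When Slfn8, Slfn9 and Slfn10-ps were summed into 1 feature, the counts were 674, 378 and 305 in KO 146, 147 and 148, against 106, 137 and 144 in CTRL 157, 162 and 163. The summed feature had a log2 fold change of 1.55 (SE 0.24, edgeR adjusted p = 0.0488), a call that scaling by library totals (adjusted p = 0.0568), limma-voom (0.0613) or leaving out KO 147 or any CTRL library (0.139 to 0.23) ended.

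**Figure D2:**
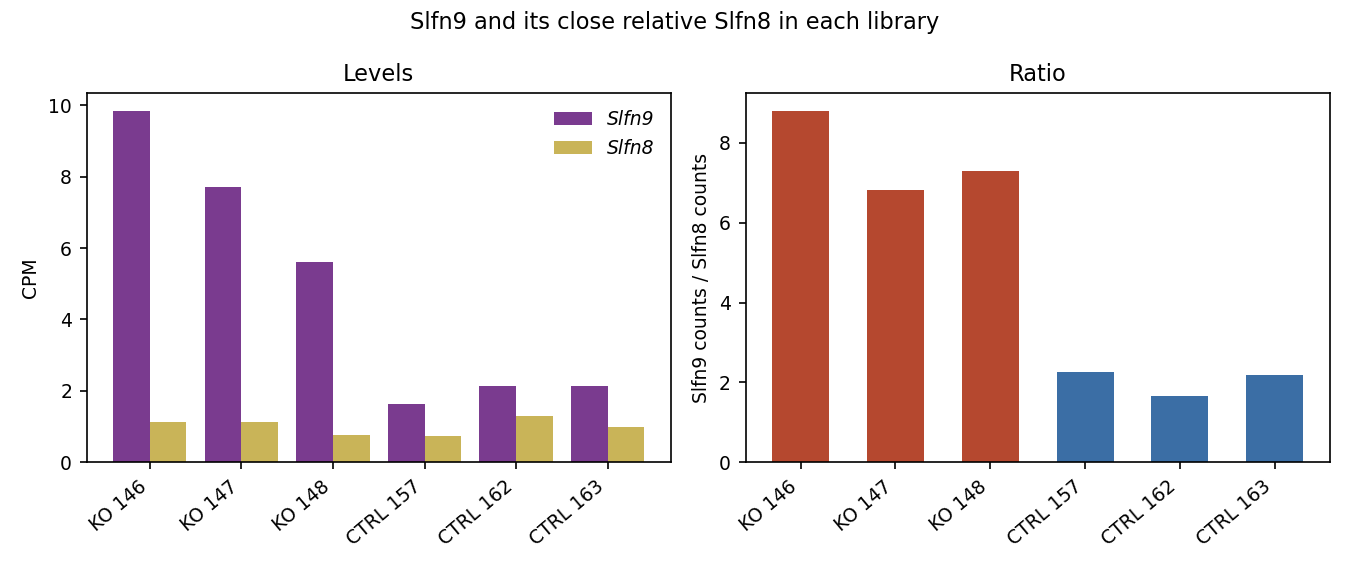
Left, level of Slfn9 and Slfn8 in CPM in each library. Right, Slfn9 counts divided by Slfn8 counts in each library, which lie between 6.81 and 8.80 in KO libraries and between 1.65 and 2.26 in CTRL libraries.

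Of the short members, Slfn2, which maintains quiescence of resting T cells, had 1149, 543 and 329 counts in KO 146, 147 and 148, against 214, 249 and 225 counts in CTRL 157, 162 and 163. Its level was 19.5, 13.1 and 7.23 CPM in the KO libraries, against 4.97, 6.53 and 5.08 CPM in the CTRL libraries. The groups did not overlap, but KO 148 was close to CTRL 162. The log2 fold change of Slfn2 was 1.27 (SE 0.35, edgeR adjusted p = 0.0826).

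Slfn1, the growth-inhibitory founder of the family, had 55, 29 and 24 counts in KO 146, 147 and 148, against 20, 21 and 17 counts in CTRL 157, 162 and 163. In CPM the groups overlapped, with KO 148 at 0.528 below CTRL 162 at 0.551. Its log2 fold change was 0.64 (SE 0.29, edgeR adjusted p = 0.201), and counts this low limit its precision.

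Of the intermediate members, Slfn3 had 310, 92 and 64 counts in KO 146, 147 and 148, against 35, 33 and 30 counts in CTRL 157, 162 and 163. The groups did not overlap, and KO 146 was 3.73-fold above KO 148, the widest span of any member within a group. Its log2 fold change was 1.92 (SE 0.50, edgeR adjusted p = 0.0792). Slfn4, known from mouse myeloid cells, had 71, 26 and 23 counts in KO 146, 147 and 148, against 21, 12 and 14 counts in CTRL 157, 162 and 163. In CPM its groups were barely apart, with KO 148 at 0.506 and CTRL 157 at 0.488. The log2 fold change of Slfn4 was 1.07 (SE 0.41, edgeR adjusted p = 0.141).

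How many members were called depended on the tool and on single libraries. DESeq2 called Slfn2, Slfn3, Slfn5 and Slfn9 (4 of 7, against 11.7% of tested genes called higher). edgeR called Slfn3, Slfn5 and Slfn9 without KO 146 (3 of 7, against 10.5%) and Slfn2, Slfn3, Slfn5 and Slfn9 without KO 148 (4 of 7, against 12.9%). It called 0 of 7 when KO 147 or any CTRL library was left out. Without KO 146 the log2 fold changes of Slfn3 and Slfn5 were 1.20 and 1.17, and the median of the 7 members was 0.87, against 1.27 with all libraries and -0.006 over all tested genes.

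Of the remaining Schlafen genes, Slfn14 and Slfnl1 were barely detected, while Slfn10-ps, described above, passed the count filter. Slfn14, next to Slfn3 on the outer side of the cluster, had 1, 0 and 1 counts in KO 146, 147 and 148, against 2, 0 and 0 in CTRL 157, 162 and 163. Slfnl1, a Schlafen-like gene on chromosome 4, had 2, 0 and 1 counts in KO 146, 147 and 148, against 0, 0 and 1 in CTRL 157, 162 and 163. A count of 0 allows up to 3 counts, or 0.0508 to 0.0788 CPM, so no difference was detectable for either gene at this depth.

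Of the flanking genes described here, Unc45b and Ap2b1 had KO libraries wholly above CTRL libraries, and Rffl had them wholly below. Of all 17086 tested genes, 3738 were wholly above and 3347 wholly below. Of the 10 nearest protein-coding genes, 5 on each side, 7 were tested and edgeR called 0 in either direction, with a median log2 fold change of 0.11. An unadjusted p below 0.05 was reached by 1 higher and 2 lower, against 2995 and 2016 of all 17086 tested genes. DESeq2 called 1 higher and 2 lower, against 1993 and 966. Unc45b, a myosin chaperone gene directly before Slfn5, stood at 26.8, 13.7 and 7.50 CPM in KO 146, 147 and 148, against 5.04, 6.40 and 5.62 CPM in CTRL 157, 162 and 163. Its groups did not overlap and its log2 fold change was 1.5 (SE 0.44, edgeR adjusted p = 0.0895). Slfn5os overlaps Unc45b as well.

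On the same side, Nle1, a ribosome assembly factor, had a log2 fold change of 0.18 (SE 0.15), Rad51d, a DNA repair gene, of -0.19 (SE 0.13) and Rffl, a ubiquitin ligase, of -0.39 (SE 0.08). On the other side, Ap2b1, a clathrin adaptor subunit, had 0.11 (SE 0.08) and Rasl10b 0.88 (SE 0.44). The edgeR adjusted p of these 5 genes lay between 0.0717 and 0.436. Fndc8, Slfn14 and Gas2l2 did not pass the count filter.

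Most members were highest in the KO library with the highest glomerular marker sums, and the part of those markers in their differences was not tested beyond the fits given here. Above the CTRL mean of log2 CPM, Slfn5 stood at 2.63, 1.45 and 0.87 in KO 146, 147 and 148, and the mean of 15 glomerular endothelial markers stood at 2.49, 1.33 and 0.75. Slfn3 stood at 2.68, 1.45 and 0.81, close to the mesangial list mean at 2.72, 1.32 and 0.79. Slfn9 stood at 2.31, 1.97 and 1.51, so its KO libraries lay closer together than those of these lists. Glomerular endothelial markers summed to 1760 to 5910 CPM in KO libraries and 885 to 1030 CPM in CTRL libraries, mesangial markers to 504 to 1940 CPM in KO libraries and 256 to 269 CPM in CTRL libraries, and no marker of either list was at 0 in all libraries. All 15 endothelial, 12 mesangial and 15 podocyte markers had positive values, with medians of 1.73, 1.88 and 2.01 and 0 called by edgeR (unadjusted p below 0.05: 15, 12 and 14, against 17.5% of all tested genes; DESeq2: 15, 9 and 12, against 11.7%). Without KO 146 the medians of these lists were 1.08, 1.08 and 1.25, and edgeR called 13, 10 and 13 of their genes higher, against 10.5% of all tested genes.

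Relative to the mean of the endothelial markers, Slfn5 was at -0.32 ± 0.02 log2 units in KO libraries and -0.45 ± 0.07 in CTRL libraries (SD, n = 3 each), with no overlap. Its groups overlapped relative to the podocyte mean (-0.67 ± 0.09 in KO and -0.77 ± 0.21 in CTRL) and to the mesangial mean (1.19 ± 0.11 in KO and 1.14 ± 0.10 in CTRL). Slfn9 was at -4.78, -3.98 and -3.85 log2 units relative to the endothelial mean in KO 146, 147 and 148, against -4.77, -4.53 and -4.53 in CTRL 157, 162 and 163. The groups of Slfn9 thus overlapped on this scale, as they did relative to the podocyte and mesangial means, with KO 146 lowest of the KO libraries. With the endothelial mean as a covariate, a fit chosen after seeing the data, the log2 fold change of Slfn5 was 0.09 (SE 0.10, edgeR adjusted p = 0.732) and that of Slfn3 was 0.05 (SE 0.32, adjusted p = 0.959). Slfn9 had a log2 fold change of 1.26 (SE 0.23) and was called in that fit (edgeR adjusted p = 0.0206). That fit called 204 of 17086 tested genes higher, against 101 without a covariate. The endothelial mean ran from 5.51 to 5.65 log2 CPM in CTRL libraries and from 6.35 to 8.09 in KO libraries. The slope of this covariate thus rests mainly on the KO libraries. With the proximal tubule mean as a covariate Slfn9 stood at 1.18 (SE 0.25, adjusted p = 0.0531) and was not called, and the other 6 members had values between -0.49 and -0.07. Slfn1, Slfn4 and Slfn8 were lower relative to the endothelial mean in KO libraries, with no overlap of the groups, and Slfn8 stood at -7.07 ± 0.69 in KO and -5.59 ± 0.33 in CTRL.

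**Figure D3:**
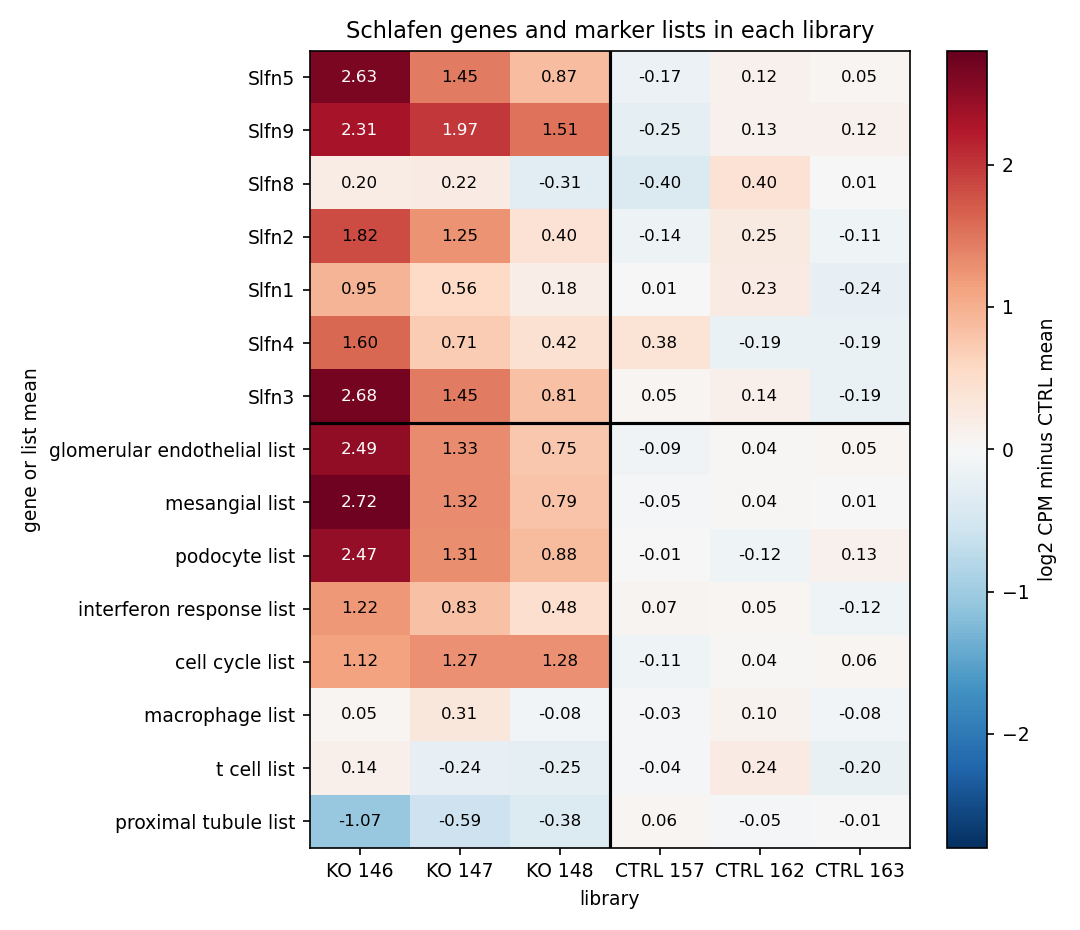
log2 CPM minus the CTRL mean for each Schlafen gene (top) and for the means of marker and response lists (bottom) in each library, as a colour with its value. Slfn5 and Slfn3 show values near those of the glomerular lists in every KO library, Slfn9 ends higher in KO 148 (1.51), and Slfn8 and the macrophage list stay between -0.40 and 0.40.

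Markers of blood and immune cells, in which Schlafen genes are best known, had medians near those of all genes for macrophages and T cells. Of 14 macrophage markers 9 were positive, the median was 0.05 and edgeR called 0 in either direction. At an unadjusted p below 0.05, 1 was higher, against 17.5% of all tested genes, and DESeq2 called 1 higher, against 11.7%. The 14 markers summed to 102 to 147 CPM in KO libraries and 103 to 118 CPM in CTRL libraries. Mrc1, the mannose receptor gene, had the smallest p of the list, at 40.6, 19.7 and 13.5 CPM in KO 146, 147 and 148, against 6.85, 8.27 and 7.16 CPM in CTRL 157, 162 and 163, with no overlap (log2 fold change 1.73, SE 0.39, edgeR adjusted p = 0.0755). Lyz2, the macrophage lysozyme, had a log2 fold change of 0.38 (SE 0.24), and Csf1r, the growth factor receptor of macrophages, stood at 22.1 ± 2.35 CPM in KO and 25.8 ± 2.05 CPM in CTRL (SD, n = 3 each). Of 15 T cell markers 7 were positive, with a median of -0.08, and they summed to 14.1 to 18.4 CPM in KO libraries and 16.6 to 30.4 CPM in CTRL libraries, where Cd8a alone gave 21.3 CPM in CTRL 163. All 8 B cell markers were positive with a median of 0.36, and 2 of 8 neutrophil markers were tested, with a median of 0.76 and sums of 1.47 to 3.42 CPM in KO and 1.09 to 1.31 CPM in CTRL. edgeR called 0 T cell, B cell or neutrophil markers. At an unadjusted p below 0.05, 1 T cell marker was higher and 1 lower, against 2995 and 2016 of all 17086 tested genes, with 0 B cell and 0 neutrophil markers. DESeq2 called 1 T cell marker lower, against 966 of all tested genes. With the macrophage mean as a covariate Slfn9 had a log2 fold change of 1.91 (SE 0.28) at an edgeR adjusted p of 0.154, in a fit that called 2 genes in all.

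Interferon response genes had positive values throughout. All 36 listed genes were tested and positive, with a median log2 fold change of 0.84, edgeR called 0, 29 had an unadjusted p below 0.05 (against 17.5% of all tested genes) and DESeq2 called 27 (against 11.7%). Without KO 146 the median was 0.74 and edgeR called 20 of 36 higher, against 10.5% of all tested genes. The list mean stood 1.22, 0.83 and 0.48 above the CTRL mean in KO 146, 147 and 148, highest in KO 146 and lowest in KO 148 as the glomerular lists were. Ifit1, an RNA-binding antiviral protein, stood at 13.6, 10.2 and 7.17 CPM in KO 146, 147 and 148, against 3.51, 4.49 and 3.12 CPM in CTRL 157, 162 and 163 (log2 fold change 1.48, SE 0.27, edgeR adjusted p = 0.0624). Rtp4 had a log2 fold change of 1.57 (SE 0.29) and the guanylate-binding protein Gbp3 of 1.06 (SE 0.22). Relative to the mean of this list, Slfn9 was at -0.40, -0.35 and -0.46 log2 units in KO 146, 147 and 148, against -1.82, -1.41 and -1.24 in CTRL 157, 162 and 163. The KO values of Slfn9 were thus nearly equal on this scale and all above CTRL, and Slfn3 and Slfn5 also lay wholly above CTRL. The values of Slfn1 were as close together (-3.74, -3.74 and -3.77 in KO 146, 147 and 148) but lay below CTRL. Slfn8 lay below CTRL as well, and the groups of Slfn2 and Slfn4 overlapped.

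Of 12 interferon receptor and signalling genes 10 were tested and all were positive, with a median of 0.27 and 0 called by edgeR. An unadjusted p below 0.05 was reached by 5, against 17.5% of all tested genes, and DESeq2 called 3 higher, against 11.7%. Ifngr1 and Ifngr2, the interferon-gamma receptor subunits, had log2 fold changes of 0.57 (SE 0.15) and 0.39 (SE 0.11), and the transcription factor Irf1 of 0.94 (SE 0.30). Ifnb1, which encodes interferon beta, had no count in any library.

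Of 20 cell cycle genes, edgeR called 14 higher, against 0.591% of all tested genes, with a median of 1.29. All 20 had an unadjusted p below 0.05 (against 17.5%), and DESeq2 called 20 higher (against 11.7%). The list mean stood at 1.12, 1.27 and 1.28 above the CTRL mean in KO 146, 147 and 148. Top2a, which untangles replicated DNA, had a log2 fold change of 1.41 (SE 0.09, edgeR adjusted p = 0.00612). Relative to their mean, Slfn9 was at -0.18, -0.68 and -1.15 log2 units in KO 146, 147 and 148, against -1.53, -1.30 and -1.32 in CTRL 157, 162 and 163, with no overlap.

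The tested protein-coding genes most like each member were ranked by Pearson r of log2 CPM across the 6 libraries, which share the 2 groups and the glomerular marker level of each library. For Slfn9 they were Jpt1 (r = 0.9981), Myl7 (0.9974) and the centriole duplication kinase Plk4 (0.9973), of which edgeR called Myl7 and Plk4 higher. For Slfn5 they were Emp2 (0.9997), Pip4k2a (0.9995) and Dok1 (0.9994), and for Slfn3 Tiam1 (0.9997), a Rac1 exchange factor, Prkd2 (0.9996) and Pkn3 (0.999). Slfn1 was most like A230050P20Rik (0.9961), Aim2 (0.9929) and Rsad2 (0.9917), and Slfn2 like Tvp23a (0.9995), Trp53i11 (0.9987) and Psmb9 (0.9976). Aim2, Rsad2 and Psmb9 are known interferon-inducible genes, ranked here for Slfn1 and Slfn2 only, and a shared response was not tested. Slfn4 was most like Hoxb3 (0.9988), Txlna (0.9962) and Hdgfl2 (0.996), and Slfn8 like 4931428F04Rik (0.9772), Ubash3b (0.959) and Gm6377 (0.9574), the lowest r of any member.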

How the data were processed

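The submitters' processing notes list HTSeq 0.11.1, fastp 0.19.5, DESeq2 and STAR 2.6.0 without saying what each did, and the build GRCh37, although the identifiers are mouse. The authors deposited unnormalized counts, 1 whole number per gene and library. The 5 closing lines that name no gene were left out. Reads aligned to several places made up 22.51% to 29.63% of records in each file. Names and positions come from GENCODE M21 (GRCm38), which named 54723 of 54838 identifiers. No source used here gives the strand setting or read length.

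Counts were tested in R 4.3.3 with edgeR 4.0.16 (TMM, filterByExpr with a minimum count of 10, robust quasi-likelihood F test, no covariate, Benjamini-Hochberg adjustment over all 17086 tested genes, calls below 0.05). SE was taken from the log2 fold change and the F statistic, as their ratio with F square-rooted, and log2 CPM used a prior count of 2. The fit was tested on simulated data. DESeq2 1.42.0 and limma 3.58.1 served as alternatives, beside other scalings, no filter, covariates and left-out libraries. Coding sequences were aligned with Biopython 1.88. Each library is a separate sample of its group, and pairs within a group differed by a chi-square of 16.7 or more per degree of freedom over genes with at least 50 counts. The labels do not say more about how animals were handled, so p values set the group difference against the spread between these samples. That spread includes the differing glomerular marker sums of the KO libraries. Genotype and differences between the glomerular preparations cannot be told apart here.

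The members and lists were chosen with earlier results of these data known. Named genes are the members, the remaining Schlafen genes, 5 protein-coding neighbours on each side (1 is not reported here), the 3 listed genes of smallest p per list where a result turns on them, the 3 genes most like each member, and Arhgef7. Csf1r and Ifnb1 were named for what they define, and Cd8a with Gm11427 after their values were seen.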

Additional observations from a re-analysis of the deposited data

How the results depend on the processing

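No paired analysis was possible because the groups share no replicate number. In the 16 settings run for it, the reported one included, Slfn9 stayed positive, between 1.18 and 2.16, with edgeR, DESeq2 or limma-voom adjusted p from 2.89e-10 to 0.196. Over all genes, 173 calls became 960 with no filter on low counts, 2959 with DESeq2 and 2 with the macrophage covariate, and 2 to 3211 when single libraries were left out. Members called went from 1 to 4 with DESeq2, to 0 with the proximal tubule or macrophage covariate, and ranged from 0 to 4 with single libraries left out. The summed Slfn8, Slfn9 and Slfn10-ps feature was no longer called with scaling by library totals (1.71), limma-voom (1.55), or the proximal tubule (0.78), macrophage (1.47) or endothelial (0.86) covariate, and ran from 1.34 to 1.72 with single libraries left out. With the proximal tubule covariate the signs of Slfn1 (-0.17), Slfn2 (-0.12), Slfn3 (-0.11), Slfn4 (-0.20), Slfn5 (-0.07) and Slfn8 (-0.49) turned. With the endothelial covariate those of Slfn1 (-0.09), Slfn4 (-0.13) and Slfn8 (-0.41) turned and Slfn2 was at 0. Slfn8 was also negative with the macrophage covariate (-0.12) and ran from -0.16 to 0.25 with single libraries left out. None of these reversed values was called, and the cause was not tested. Scaling by library totals moved the median of all genes to 0.131, and the share of calls that were higher to 69.5%, against 58.4%. Low counts limit Slfn1, Slfn4 and Slfn8.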

Other observations

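Gm11427, a transcribed pseudogene beyond Slfn3 at the outer end of the cluster (GRCm38 chromosome 11, 83224454 to 83260960, plus strand), had 45, 11 and 13 counts in KO 146, 147 and 148, against 10, 7 and 10 counts in CTRL 157, 162 and 163. It shares 92 of the 1867 windows of 100 bases in the Slfn3 transcript. Of 12 genes linked to quiescence, edgeR called 0 in either direction, with a median log2 fold change of 0.09. An unadjusted p below 0.05 was reached by 3 higher and 1 lower, against 2995 and 2016 of all 17086 tested genes. DESeq2 called 2 higher and 1 lower, against 1993 and 966. Klf2, a transcription factor of resting T cells and of endothelium under flow, had a log2 fold change of 1.49 (SE 0.33, edgeR adjusted p = 0.0753). Klf4 stood at 1.44 (SE 0.42, edgeR adjusted p = 0.09), and Tob1, an antiproliferative gene, at -0.41 (SE 0.11, adjusted p = 0.0821).

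Cd8a, a T cell co-receptor, had 117, 111 and 156 counts in KO 146, 147 and 148, against 208, 121 and 943 counts for CTRL 157, 162 and 163, so 1 CTRL library stood far above the rest. Cd3g, part of the T cell receptor complex, had 23 counts in CTRL 163, where Slfn1 stood at 0.384 CPM and Slfn2 at 5.08 CPM, within or below the range of the other CTRL libraries. Erythroid and platelet markers had a median of -0.04 with 0 called by edgeR (unadjusted p below 0.05: 0; DESeq2: 0). Of 11 loop, distal tubule and collecting duct markers tested, all were negative, with a median of -0.46 and 0 called by edgeR. An unadjusted p below 0.05 was reached by 6 lower, against 2016 of all 17086 tested genes, and DESeq2 called 3 lower, against 966. All 15 proximal tubule markers were negative, with a median of -0.57, and 1 was called lower, Slc7a13 (-0.97, SE 0.12, edgeR adjusted p = 0.0332). Over all tested genes edgeR called 72 lower. Of the proximal tubule markers 12 were lower at an unadjusted p below 0.05, and DESeq2 called 10 lower.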
